A study of Mus musculus with 12 samples.

Results

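The genes described here are 50 mouse genes that encode collagens, matrix glycoproteins, basement membrane subunits, elastic fibre components, small proteoglycans and the lysyl oxidases that crosslink them. They were taken by name from the probe annotation of the arrays, with cartilage collagens left out, and make up 50 of the 20829 genes tested. RNA came from fibroblast cultures of the mouse embryo, known as MEFs, made at embryonic day 12.5 on a C57Bl/6 background. The 4 groups, with 3 arrays each, were homozygous GR-C3 knockin cells given dexamethasone (Dex), a synthetic glucocorticoid, at 100 nM for 6 h, GR-C3 knockin cells given vehicle for 6 h, wild-type (WT) cells given Dex at the same dose and time, and WT cells given vehicle. The glucocorticoid receptor gene Nr3c1 is translated from several start codons, and in the knockin allele all of them in exon 2 are mutated apart from that of the GR-C3 isoform. The knockin line goes back to 1 embryonic stem cell clone. No embryo or culture is named per sample, so the p-values rest on a spread between arrays that may be technical, and a difference between embryo preparations and a difference between genotypes cannot be told apart.

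Fibroblasts secrete most of the matrix of connective tissue. Fibrillar collagens are secreted as procollagens, trimmed outside the cell and assembled into fibrils, whose diameter and spacing depend on minor collagens and on small leucine-rich proteoglycans such as decorin. Lysyl oxidases then oxidise lysines so that collagen and elastin chains bond covalently. Elastin is laid down on fibrillin microfibrils with the help of fibulins and emilins, while laminins, nidogens and type IV collagen form the sheets of basement membranes. Glucocorticoids are known to change matrix synthesis in skin and in cultured fibroblasts.

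Levels are given on a log2 scale with the 75th percentile of each array set to 0, so that a gene at 0 equals that percentile, and changes are differences of group means on this log2 scale with their standard error (SE). A gene was called when limma's p-value, adjusted over all 20829 genes by the Benjamini-Hochberg method, was below 0.05. All 50 genes were well above background on every array. Between 71.32% and 79.05% of spots were well above background per array, and the number of arrays, 3 per group, limits the precision. All 10 fibroblast markers of the list used, among them Vim, Pdgfra and Thy1, were measured in every group. The endothelial markers Pecam1, Cdh5 and Tie1 and the epithelial markers Epcam and Cdh1 were not above background on all arrays of any group.

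The array labelled WT vehicle replicate 1 went against its label. Fkbp5, a chaperone gene that glucocorticoids induce, stood at 0.46, 0.94 and 0.96 in GR-C3 Dex cells and 2.15, 1.90 and 2.06 in WT Dex cells, and at -2.24, -2.38 and -2.24 in GR-C3 vehicle cells and -2.64 and -2.74 in WT vehicle replicates 2 and 3, but at 1.51 on that array. The summed linear level of 5 such genes, Fkbp5, Per1, Tsc22d3, Mt2 and Lcn2, ran from 158 to 174 times the 75th percentile in GR-C3 Dex cells, 27.4 to 29.1 in GR-C3 vehicle cells, 225 to 302 in WT Dex cells and 21.5 to 234 in WT vehicle cells, with that array at the top of the last range. The array correlated at up to 0.9892 with WT Dex arrays and at up to 0.9833 with the other WT vehicle arrays, which correlated at 0.9978 with each other. The WT Dex arrays correlated at 0.992 to 0.9953 among themselves, so that array stood apart from both WT groups. It was also the only array on its slide and scan day. Results are given over 12 arrays and over 11 arrays, without that array.

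Genotype separated the matrix genes more often than Dex did in these counts. Under vehicle, 19 of the 50 genes differed between GR-C3 and WT cells, 8 of them higher and 11 lower in GR-C3 cells, which is 16% and 22% of the genes against 14.6% and 10.2% of all genes tested. Under Dex, 7 genes were higher and 12 lower in GR-C3 cells, or 14% and 24% of the genes against 17.6% and 12.1% of all genes. Over 11 arrays the counts were 12 higher and 11 lower under vehicle, against 16.2% and 11.1% of all genes, and 9 higher and 16 lower under Dex, against 24.6% and 16.1% of all genes. The share of matrix genes called lower exceeded that of all genes in all 4 of these counts, while the share called higher lay on either side of it. The 4 counts are not independent, since the fits share arrays and the differences under Dex are the same in both. The genes were also chosen with earlier results of these data known, and whether the shares differ was not tested. Fewer cells of a type and less RNA per cell cannot be told apart in such bulk samples.

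The 2 genotype comparisons share no array, but both rest on 1 fit with the same estimate of the spread of each gene. The same cell preparations may also lie behind both treatments, so the 2 calls of a gene are not independent. Called in both, and with 1 direction, were 7 genes higher and 10 lower in GR-C3 cells, against 10.6% and 7.71% of all genes, and no gene was called in opposite directions. Over 11 arrays these counts were 8 and 11, against 11.7% and 8.49% of all genes. The median change of the 50 genes was -0.02 under vehicle and -0.07 under Dex, and the median of all genes tested stood at 0.11 and 0.13. Over 11 arrays the median of the 50 genes under vehicle was 0.10, against 0.12 for all genes, so its sign turned on that array, and without WT vehicle replicate 2 it was -0.12. With quantile normalization the median of all genes was 0.06 under vehicle and 0.05 under Dex. Over 12 arrays 7 matrix genes were then called higher and 15 lower under vehicle, in place of 8 and 11. Of all 20829 genes, 2686 were higher and 2467 lower, in place of 3036 and 2123. Under Dex 7 matrix genes were higher and 16 lower, in place of 7 and 12. Of all genes, 3075 were then higher and 3168 lower, in place of 3658 and 2520. The plot of genotype differences shows all 50 genes by role.

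**Figure D1:**
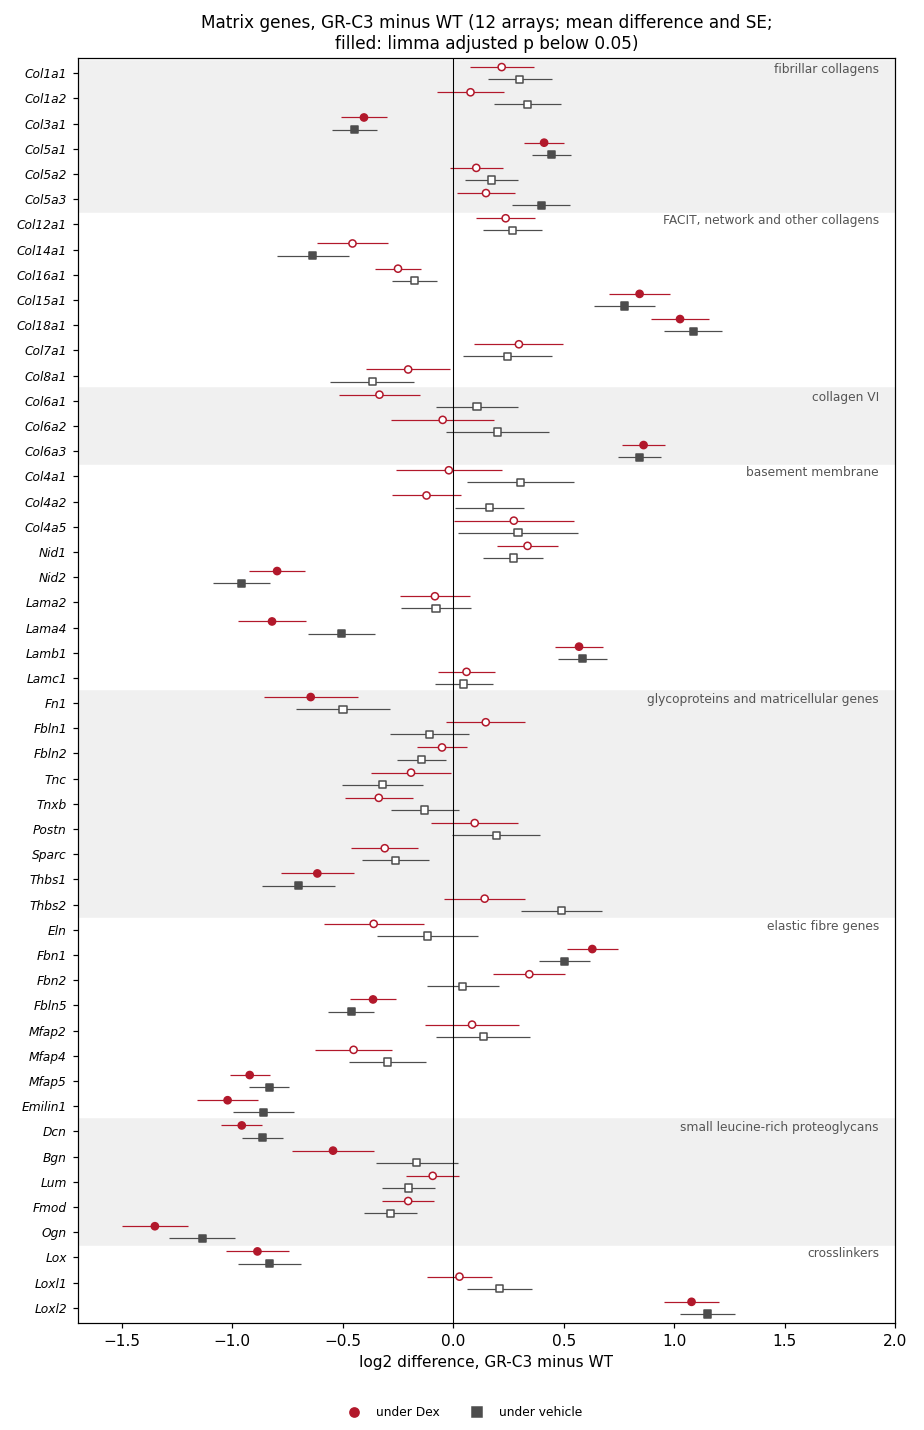
GR-C3 minus WT difference of each of the 50 matrix genes on the log2 scale, with its standard error, under Dex (circles) and under vehicle (squares), over 12 arrays and grouped by role. Filled symbols mark limma adjusted p below 0.05; Loxl2 and Col18a1 lie farthest to the right and Ogn farthest to the left under both treatments.

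Of the 6 fibrillar collagen genes, 2 were higher and 1 was lower in GR-C3 cells under vehicle, and 1 was higher and 1 lower under Dex. Col3a1, the chain of type III collagen of soft and fetal tissue, stood at 5.71, 5.83 and 5.73 in GR-C3 Dex cells and 5.65, 5.53 and 5.83 in GR-C3 vehicle cells, against 6.26, 6.10 and 6.12 in WT Dex cells and 6.13, 6.08 and 6.15 in WT vehicle cells. All 6 GR-C3 arrays were below all 6 WT arrays, with a change of -0.40 ± 0.10 under Dex (limma adjusted p 0.0131) and -0.45 ± 0.10 under vehicle (adjusted p 0.00893), though the change under Dex was 0.06 and not called when the background was corrected by normexp. Col5a1, a chain of the type V collagen that initiates fibrils, went the other way. It stood at 5.91, 6.02 and 5.98 in GR-C3 Dex cells and 5.87, 5.88 and 5.88 in GR-C3 vehicle cells, against 5.47, 5.60 and 5.61 in WT Dex cells and 5.50, 5.47 and 5.34 in WT vehicle cells, a rise of 0.41 ± 0.090 under Dex (adjusted p 0.00647) and 0.44 ± 0.090 under vehicle (adjusted p 0.00476). Col5a3, a further type V chain, was called under vehicle only, at 0.40 ± 0.13 (adjusted p 0.0468), and its change under Dex was 0.15 ± 0.13 (adjusted p 0.406). The Col5a3 call was lost on leaving out any 1 of 8 of the 12 arrays, with adjusted p up to 0.156, and was kept without WT vehicle replicate 1, WT Dex replicate 1 or 3, or GR-C3 vehicle replicate 2. The interaction test, given at the end, did not call Col5a3, so a difference between treatments is not shown. Col1a1 and Col1a2, the chains of type I collagen, differed by 0.22 ± 0.15 and 0.08 ± 0.15 under Dex and by 0.30 ± 0.15 and 0.34 ± 0.15 under vehicle, with overlapping groups.

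Among the 7 FACIT (fibril-associated), network and other collagens, the multiplexin genes Col18a1 and Col15a1 rose in GR-C3 cells and 1 FACIT gene fell under vehicle, over 12 arrays. Col18a1 encodes the collagen that carries endostatin at its end, and stood at 3.30, 3.51 and 3.44 in GR-C3 Dex cells and 3.37, 3.32 and 3.44 in GR-C3 vehicle cells, against 2.17, 2.68 and 2.32 in WT Dex cells and 2.42, 2.22 and 2.24 in WT vehicle cells. No GR-C3 array reached down to the WT range, and the level was 2.04 times the WT level under Dex (log2 change 1.03 ± 0.13, adjusted p 0.000285) and 2.12 times under vehicle (1.09 ± 0.13, adjusted p 0.000203). Its relative Col15a1 gave a weak signal, at -3.58, -3.40 and -3.40 in GR-C3 Dex cells and -3.69, -3.68 and -3.49 in GR-C3 vehicle cells, against -4.47, -4.24 and -4.20 in WT Dex cells and -4.11, -4.52 and -4.55 in WT vehicle cells. It rose by 0.84 ± 0.14 under Dex (adjusted p 0.00123) and 0.78 ± 0.14 under vehicle (adjusted p 0.00226), but the change under Dex was -0.69, and not called, when the background was corrected by normexp. Col14a1, a FACIT collagen that binds fibril surfaces, fell by 0.64 under vehicle (SE 0.16, adjusted p 0.0159). That call was lost without WT vehicle replicate 2 (adjusted p 0.0512), WT vehicle replicate 3 (change -0.48, adjusted p 0.0573) or GR-C3 vehicle replicate 2 (adjusted p 0.0549), and with slide as a block (adjusted p 0.0601). Its values were -1.02, -1.05 and -0.98 in GR-C3 vehicle cells, against -0.79, -0.27 and -0.07 in WT vehicle cells. Under Dex it missed the threshold over 12 arrays (adjusted p 0.0549), and over 11 arrays Col14a1 was called in both, at -0.46 ± 0.097 under Dex and -0.84 ± 0.11 under vehicle. Col7a1, the collagen of anchoring fibrils, was called over 11 arrays, at 0.30 ± 0.11 under Dex and 0.52 ± 0.12 under vehicle, and not over 12. Col8a1, a network-forming short-chain collagen, and Col16a1, a FACIT collagen, did not pass over 12 arrays, at -0.20 ± 0.19 and -0.25 ± 0.10 under Dex and -0.37 ± 0.19 and -0.18 ± 0.10 under vehicle.

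Type VI collagen is a heterotrimer that forms beaded filaments around cells, and 1 of its 3 chain genes was called between genotypes on the probe used. Col6a3, the largest chain, stood at 4.57, 4.66 and 4.65 in GR-C3 Dex cells and 4.57, 4.43 and 4.68 in GR-C3 vehicle cells, against 3.69, 3.79 and 3.83 in WT Dex cells and 3.80, 3.69 and 3.66 in WT vehicle cells. The GR-C3 arrays lay above all WT arrays, by 0.86 ± 0.097 under Dex (adjusted p 0.000108) and 0.84 ± 0.097 under vehicle (adjusted p 0.000129). Col6a1 differed by -0.33 ± 0.19 under Dex and 0.11 ± 0.19 under vehicle, and Col6a2 by -0.05 ± 0.23 and 0.20 ± 0.23, none of them called. The probes of Col6a2 disagreed, since its second probe, in a fit over all probes, was called higher in GR-C3 cells by 0.58 under Dex (adjusted p 0.00963) and 0.62 under vehicle (adjusted p 0.00737). Those 2 genes neighbour each other on chromosome 10, with probes 112 kb apart in mouse build mm7, while Col6a3 lies on chromosome 1. Col18a1, which rose in GR-C3 cells, lies 344 kb beyond Col6a1 on the same chromosome.

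The 9 basement membrane genes held calls in both directions. Lamb1, the beta chain of laminin trimers made by fibroblasts and many other cells, is represented by a probe whose 60 bases span 1348 bases of the genome (mm7, chr12:29168364-29169711, plus strand), so that it crosses an intron and reads spliced RNA. The probe is shown in full, as the oligo on which the Lamb1 difference rests.
Lamb1 probe: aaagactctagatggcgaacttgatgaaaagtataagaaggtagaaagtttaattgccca
Lamb1 stood at 3.46, 3.35 and 3.31 in GR-C3 Dex cells and 3.51, 3.45 and 3.47 in GR-C3 vehicle cells, against 2.97, 2.61 and 2.83 in WT Dex cells and 2.78, 2.95 and 2.96 in WT vehicle cells. Every GR-C3 array was above every WT array, by 0.57 ± 0.11 under Dex (adjusted p 0.0033) and 0.58 ± 0.11 under vehicle (adjusted p 0.00317). Nid2, the nidogen that links laminin to type IV collagen, went down. It stood at 1.12, 1.21 and 1.16 in GR-C3 Dex cells and 1.04, 0.88 and 1.21 in GR-C3 vehicle cells, against 1.95, 1.86 and 2.07 in WT Dex cells and 2.16, 1.76 and 2.08 in WT vehicle cells, a change of -0.80 ± 0.13 under Dex (adjusted p 0.00113) and -0.96 ± 0.13 under vehicle (adjusted p 0.000369). Its paralogue Nid1 did not pass over 12 arrays, at 0.34 ± 0.14 under Dex and 0.27 ± 0.14 under vehicle. Lama4, an alpha chain of laminins around vessels and muscle, was lower, at -0.82 ± 0.15 under Dex (adjusted p 0.00269) and -0.51 ± 0.15 under vehicle (adjusted p 0.0337), and was not called under vehicle over 11 arrays (adjusted p 0.08), nor without WT vehicle replicate 3, any 1 GR-C3 vehicle array or GR-C3 Dex replicate 3 (adjusted p up to 0.126). A weak further Lama4 probe ran the other way under Dex, at 0.90 (adjusted p 0.0229 over all probes). Col4a1 and Col4a2, the common chains of type IV collagen, differed by -0.02 ± 0.24 and -0.12 ± 0.16 under Dex, not called, and over 11 arrays Col4a1 was higher under vehicle by 0.65 ± 0.13 (adjusted p 0.00442).

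Glycoproteins and matricellular proteins gave no higher call over 12 arrays. Thbs1, thrombospondin 1, which binds and can activate latent TGF-beta, stood at 5.55, 5.29 and 5.27 in GR-C3 Dex cells and 5.22, 5.46 and 5.44 in GR-C3 vehicle cells, against 6.20, 5.62 and 6.15 in WT Dex cells and 5.89, 6.19 and 6.14 in WT vehicle cells. It was lower, at -0.62 ± 0.17 under Dex (adjusted p 0.018) and -0.70 ± 0.17 under vehicle (adjusted p 0.0109), without overlap of the genotypes. The Thbs1 call under Dex was lost without WT Dex replicate 1 or 3 or GR-C3 Dex replicate 2 or 3 (adjusted p up to 0.0709) and with slide as a block (adjusted p 0.2). Fn1, fibronectin, the glycoprotein through which integrins assemble the early matrix, is read by a probe that also crosses an intron (mm7, chr1:71832689-71834926, minus strand, 2238 bases of genome for 60 of probe).
Fn1 probe: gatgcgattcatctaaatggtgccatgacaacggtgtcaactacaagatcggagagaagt
Fn1 stood at 5.30, 5.70 and 5.81 in GR-C3 Dex cells and 5.49, 5.35 and 5.34 in GR-C3 vehicle cells, against 6.11, 6.27 and 6.36 in WT Dex cells and 5.37, 6.28 and 6.04 in WT vehicle cells, where replicate 1 is the low value and the only overlap. It was lower, at -0.65 ± 0.21 under Dex (adjusted p 0.0421), a call that was kept without WT vehicle replicate 1 or 2 but lost on leaving out any 1 of the other 10 arrays (adjusted p up to 0.14), with slide as a block (adjusted p 0.156), with normexp (change -0.25, adjusted p 0.48) and without the filter on dim probes (adjusted p 0.0679). For Fn1, the change under vehicle, -0.50 ± 0.21, was called over 11 arrays (-0.76 ± 0.16, adjusted p 0.00577) and not over 12 (adjusted p 0.114). The spot of this Fn1 probe was saturated on 1 WT vehicle array. With the brightest probe saturated on no array, the change under vehicle was called over 12 arrays (-0.83, limma adjusted p 0.0259). It was also called with the mean of all kept probes (-0.71, adjusted p 0.00697). Sparc, a collagen-binding matricellular protein, and Fbln2, a fibulin of vessel walls and basement membranes, differed by -0.31 ± 0.15 and -0.05 ± 0.11 under Dex and -0.26 ± 0.15 and -0.14 ± 0.11 under vehicle, not called over 12 arrays. Postn, periostin, differed by 0.10 ± 0.20 under Dex and 0.19 ± 0.20 under vehicle, not called.

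Of the 8 elastic fibre genes, 1 was higher and 3 were lower in GR-C3 cells under each treatment. Fbn1, fibrillin 1, the backbone of microfibrils, stood at 3.04, 2.95 and 2.85 in GR-C3 Dex cells and 2.87, 2.68 and 3.07 in GR-C3 vehicle cells, against 2.35, 2.23 and 2.37 in WT Dex cells and 2.28, 2.38 and 2.46 in WT vehicle cells, a rise of 0.63 ± 0.12 under Dex (adjusted p 0.00258) and 0.50 ± 0.12 under vehicle (adjusted p 0.00986). Mfap5, a small glycoprotein bound to fibrillin microfibrils, was one of the 3 that fell. It stood at -0.73, -0.59 and -0.55 in GR-C3 Dex cells and -0.52, -0.55 and -0.51 in GR-C3 vehicle cells, against 0.21, 0.33 and 0.36 in WT Dex cells and 0.34, 0.28 and 0.29 in WT vehicle cells, lower, at -0.92 ± 0.090 under Dex (adjusted p 3.87e-05) and -0.83 ± 0.090 under vehicle (adjusted p 8.16e-05). Emilin1, a glycoprotein at the interface of elastin and microfibrils, is read by a probe that spans 457 bases of genome (mm7, chr5:29952688-29953144, plus strand) and so crosses an intron.
Emilin1 probe: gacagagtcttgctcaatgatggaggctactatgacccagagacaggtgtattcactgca
Emilin1 stood at 0.70, 0.74 and 0.75 in GR-C3 Dex cells and 0.64, 0.50 and 0.58 in GR-C3 vehicle cells, against 1.87, 1.40 and 2.00 in WT Dex cells and 1.38, 1.45 and 1.48 in WT vehicle cells. The genotypes did not overlap, and the level in GR-C3 cells was lower, at -1.02 ± 0.14 under Dex (adjusted p 0.000379) and -0.86 ± 0.14 under vehicle (adjusted p 0.00124). Fbln5, a fibulin needed for elastic fibre assembly, was lower, at -0.36 ± 0.10 under Dex (adjusted p 0.0224) and -0.46 ± 0.10 under vehicle (adjusted p 0.00796). Its call under Dex was lost without WT Dex replicate 1 or 2 or any 1 GR-C3 Dex array (adjusted p up to 0.0752) and with slide as a block (adjusted p 0.194), and its change was 0.08 and not called with normexp. Eln, elastin itself, differed by -0.36 ± 0.23 under Dex and -0.12 ± 0.23 under vehicle with overlapping groups. Mfap2 and Mfap4, further microfibril-associated genes, did not pass over 12 arrays, at 0.09 ± 0.21 and -0.45 ± 0.17 under Dex and 0.14 ± 0.21 and -0.30 ± 0.17 under vehicle.

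All 5 small leucine-rich proteoglycan genes had negative genotype differences under both treatments, and those called were all lower in GR-C3 cells. Ogn, osteoglycin, which takes part in fibril formation, stood at 4.18, 4.18 and 4.02 in GR-C3 Dex cells and 3.90, 3.75 and 4.20 in GR-C3 vehicle cells, against 5.34, 5.57 and 5.52 in WT Dex cells and 5.23, 4.81 and 5.21 in WT vehicle cells. WT cells had 2.55 times the GR-C3 level under Dex (log2 change -1.35 ± 0.15, adjusted p 9.18e-05) and 2.2 times under vehicle (-1.14 ± 0.15, adjusted p 0.00032). Dcn, decorin, which limits fibril thickness and binds TGF-beta, stood at 2.42, 2.51 and 2.40 in GR-C3 Dex cells and 2.55, 2.52 and 2.44 in GR-C3 vehicle cells, against 3.32, 3.51 and 3.37 in WT Dex cells and 3.40, 3.30 and 3.41 in WT vehicle cells. The spread within each group was small beside the difference, -0.96 ± 0.092 under Dex (adjusted p 3.4e-05) and -0.86 ± 0.092 under vehicle (adjusted p 7.24e-05). Lum, lumican, whose probe lies 55 kb from that of Dcn on chromosome 10, was not called, at -0.09 ± 0.12 under Dex and -0.20 ± 0.12 under vehicle. Bgn, biglycan, was called under Dex, at -0.54 ± 0.19 (adjusted p 0.0473), although its groups overlapped and its weak second probe gave 0.25. The Bgn call was kept without WT vehicle replicate 1 or WT Dex replicate 1, and lost on leaving out any 1 of the other 10 arrays (adjusted p up to 0.169) and with slide as a block (adjusted p 0.102). Fmod, fibromodulin, differed by -0.20 ± 0.12 under Dex and -0.28 ± 0.12 under vehicle, not called.

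The 3 lysyl oxidase genes did not share a direction between genotypes. Loxl2, which crosslinks type IV collagen and is also found in the nucleus, stood at 5.08, 5.35 and 5.14 in GR-C3 Dex cells and 5.25, 5.27 and 5.14 in GR-C3 vehicle cells, against 3.87, 4.31 and 4.15 in WT Dex cells and 4.11, 4.06 and 4.03 in WT vehicle cells. All 6 GR-C3 arrays lay above the 6 WT arrays, at 2.11 times the WT level under Dex (log2 change 1.08 ± 0.12, adjusted p 0.000125) and 2.22 times under vehicle (1.15 ± 0.12, adjusted p 7.84e-05). Lox, the main crosslinker of fibrillar collagen and elastin, stood at 5.03, 4.96 and 4.92 in GR-C3 Dex cells and 4.70, 4.65 and 4.77 in GR-C3 vehicle cells, against 5.91, 5.61 and 6.06 in WT Dex cells and 5.81, 5.40 and 5.40 in WT vehicle cells. Lox, unlike Loxl2, was lower in GR-C3 cells, with a change of -0.89 ± 0.14 under Dex (adjusted p 0.00112) and -0.83 ± 0.14 under vehicle (adjusted p 0.00177). The probes of Lox and Fbn2 lie on chromosome 18, which also carries the mutated Nr3c1 gene. The part of that linkage in their levels was not tested. Loxl1, required to maintain elastic fibres, was at 0.03 ± 0.15 under Dex and 0.21 ± 0.15 under vehicle, not called over 12 arrays, and was called under vehicle over 11 arrays (0.38 ± 0.11, adjusted p 0.0288). Without WT vehicle replicate 1 the test also called Nid1 under Dex at 0.34 ± 0.10, Col16a1 at -0.25 ± 0.089, Sparc at -0.31 ± 0.080 and Mfap4 at -0.45 ± 0.12, and Mfap2 under vehicle at 0.44 ± 0.11. The second Sparc probe, which was also bright, ran the other way under Dex, at 0.20 (adjusted p 0.23 over 11 arrays), so the direction of Sparc depended on the probe. Across all roles, 9 genes were called, on the probe used, in no comparison over 12 or 11 arrays and are not described singly, namely Col5a2, Col12a1, Col4a5, Lamc1, Fbln1, Tnc, Tnxb, Thbs2 and Fbn2. Their genotype differences over 12 arrays ran from -0.34 (Tnxb) to 0.34 (Fbn2) under Dex and from -0.32 (Tnc) to 0.49 (Thbs2) under vehicle. The plot of array values shows how far apart the genotypes lay in 12 of the genes named above.

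**Figure D2:**
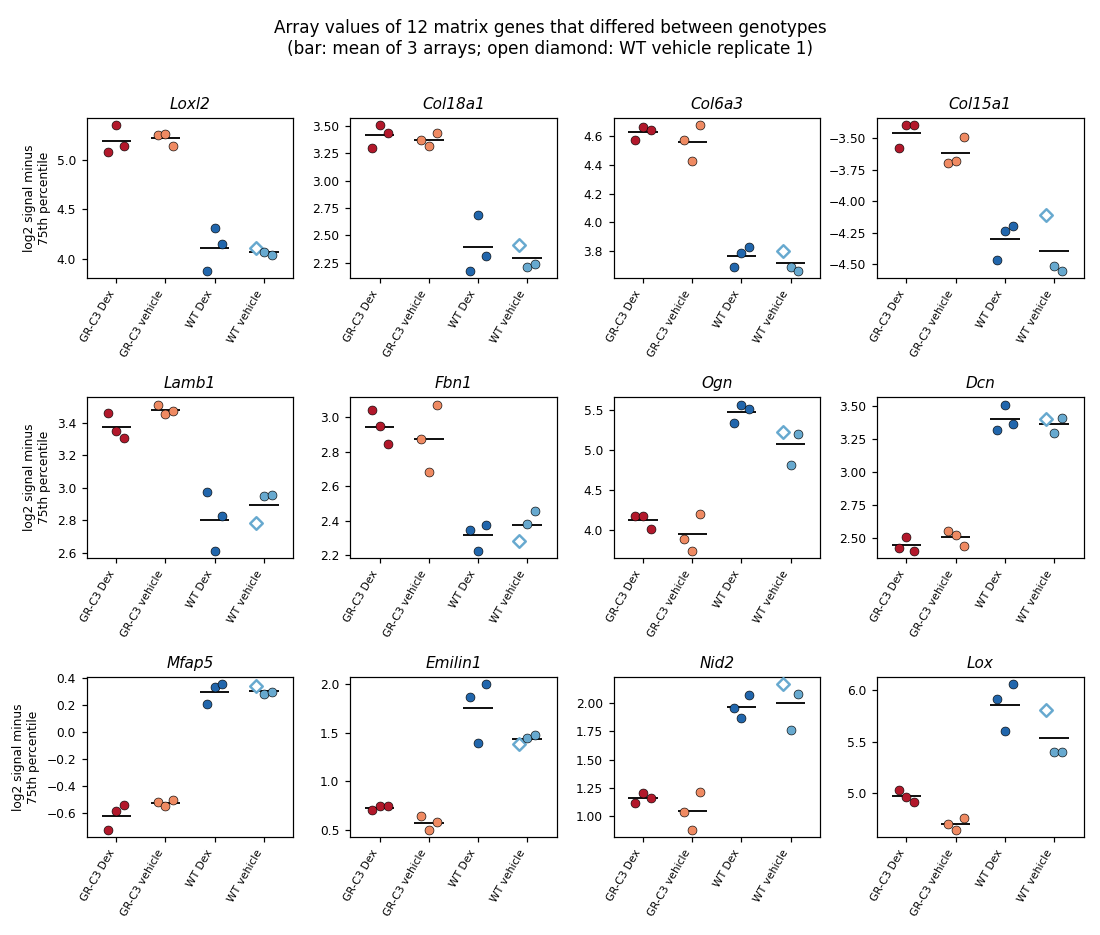
Level of 12 matrix genes on each array (log2 signal minus the array's 75th percentile, 1 panel per gene with its own vertical axis) for GR-C3 Dex, GR-C3 vehicle, WT Dex and WT vehicle cells. Bars are means of 3 arrays and the open diamond is WT vehicle replicate 1; in every panel the 6 GR-C3 arrays lie on 1 side of the 6 WT arrays.

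Slides and genotypes were partly confounded, since no slide held both genotypes under the same treatment. With slide as a block, the genotype differences are chained across slides, and all 19 genes called under each treatment kept their direction. Of these, 13 were also called in that fit under Dex, 5 higher and 8 lower against 7.65% and 7.9% of all genes, and 7 under vehicle, 3 higher and 4 lower against 3.62% and 4.21% of all genes. The genes that lost the call under Dex were Fbn1, Col5a1, Fn1, Thbs1, Bgn and Fbln5. Under vehicle the 7 were Col6a3 at 0.71 ± 0.14, Lamb1 at 0.78 ± 0.16 and Loxl2 at 0.85 ± 0.18, which were higher, and Ogn at -1.39 ± 0.22, Nid2 at -0.97 ± 0.21, Mfap5 at -0.96 ± 0.14 and Dcn at -0.93 ± 0.15, which were lower in GR-C3 cells. Those that lost the call under vehicle were Col18a1, Col15a1, Emilin1, Col14a1, Lox, Thbs1, Lama4, Fbn1, Col5a1, Fbln5, Col5a3 and Col3a1. Second probes pointed the same way in most cases. Among the genes called over 12 arrays, 15 of 17 further probes shared the sign of the probe used under Dex and 14 of 15 under vehicle, with 7 of them also called under each treatment.

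Genes that fold, modify and process collagen were called in both directions. For comparison, 17.6% of all genes were called higher and 12.1% lower under Dex, and 14.6% and 10.2% under vehicle. Of a list of 30 such genes, 29 were tested, and 5 were higher and 6 lower in GR-C3 cells under Dex, and 6 higher and 6 lower under vehicle. Pcolce2, which enhances procollagen trimming, was higher by 1.18 ± 0.13 under Dex and 0.91 ± 0.13 under vehicle, and Adamts2, the protease that removes procollagen amino-terminal ends, by 0.49 ± 0.15 and 0.52 ± 0.15. The proline hydroxylase gene P4ha3 was lower, at -0.64 ± 0.13 under Dex and -0.77 ± 0.13 under vehicle, the lysine hydroxylase gene Plod2 at -0.90 ± 0.23 and -0.77 ± 0.23, and the collagen chaperone gene Fkbp14 at -0.90 ± 0.13 and -0.85 ± 0.13. The median change of the list was -0.11 under Dex and 0.01 under vehicle. Of 25 matrix receptor genes, 5 were higher and 6 lower under Dex, and 5 higher and 5 lower under vehicle, against the same shares of all genes. Whether the counts of either list exceed those shares was not tested. Itga10, whose integrin binds cartilage collagen, was lower, at -2.11 ± 0.32 under Dex and -1.62 ± 0.32 under vehicle, while Itga4, whose integrin binds fibronectin, was higher by 1.38 ± 0.18 and 0.79 ± 0.18. The collagen receptor gene Ddr2, also on the fibroblast list, was lower, at -0.31 ± 0.095 under Dex and -0.41 ± 0.095 under vehicle. The genes named from these lists were picked after their values were seen, and each was called by limma in both comparisons.

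Cartilage markers moved with genotype beside the matrix genes. The marker counts below stand against 17.6% of all genes called higher and 12.1% lower under Dex, and 14.6% and 10.2% under vehicle. Of 8 such markers 7 were tested, and 7 of 7 were lower in GR-C3 cells under both treatments, with a median change of -1.39 under Dex and -1.29 under vehicle. Col2a1, the chain of cartilage type II collagen, stood at 2.11, 2.20 and 2.05 in GR-C3 Dex cells and 2.21, 2.17 and 2.13 in GR-C3 vehicle cells, against 5.41, 5.72 and 5.58 in WT Dex cells and 5.48, 5.33 and 5.32 in WT vehicle cells. The summed linear level of the 7 markers was 6.42 to 6.72 times the 75th percentile in GR-C3 Dex cells and 6.42 to 6.65 in GR-C3 vehicle cells, against 49.8 to 58.6 in WT Dex cells and 44.7 to 50 in WT vehicle cells. Among 6 smooth muscle markers 3 were higher in GR-C3 cells under each treatment, with Des, desmin, at 3.25 ± 0.15 under Dex and 3.59 ± 0.15 under vehicle. The summed smooth muscle level was 830 to 907 in GR-C3 Dex cells and 782 to 1000 in GR-C3 vehicle cells, against 652 to 867 in WT Dex cells and 656 to 727 in WT vehicle cells. The fibroblast markers summed to 717 to 821 in GR-C3 Dex cells and 698 to 895 in GR-C3 vehicle cells, against 676 to 897 in WT Dex cells and 659 to 750 in WT vehicle cells, and those ranges overlapped. Of the fibroblast markers 1 was higher and 1 lower under Dex, and 2 were higher and 1 lower under vehicle. Of 3 endothelial markers tested, Kdr and Emcn were higher under both treatments, and the summed level was 2.38 to 2.57 in GR-C3 Dex cells and 1.92 to 2.13 in GR-C3 vehicle cells, against 0.627 to 0.738 in WT Dex cells and 0.594 to 0.785 in WT vehicle cells. The 4 epithelial markers tested gave 2 higher and 1 lower under Dex and 2 higher under vehicle, with sums of 1.79 to 1.92 in GR-C3 Dex cells and 2.28 to 2.6 in GR-C3 vehicle cells, against 0.611 to 0.877 in WT Dex cells and 0.764 to 0.873 in WT vehicle cells. The 3 skeletal muscle markers tested gave 2 higher under Dex and 1 under vehicle, with sums of 67 to 75.7 in GR-C3 Dex cells and 59 to 73.2 in GR-C3 vehicle cells, against 42.6 to 52.5 in WT Dex cells and 37.2 to 44.6 in WT vehicle cells. The 5 macrophage markers tested gave 1 higher and 1 lower under Dex and 1 lower under vehicle, with sums of 0.378 to 0.407 in GR-C3 Dex cells and 0.418 to 0.441 in GR-C3 vehicle cells, against 0.376 to 0.438 in WT Dex cells and 0.359 to 0.513 in WT vehicle cells. The part of these cell type markers in the matrix gene differences was not tested.

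Few matrix genes were called with Dex, and the count in WT cells depended on 1 array. Over 12 arrays none of the 50 genes was called by limma in either genotype. That fit also called none of the 5 glucocorticoid response genes above, whose median change was 2.56 in GR-C3 cells and 2.53 in WT cells. A missing call over 12 arrays therefore does not show that a gene did not respond. Over 11 arrays all 5 were called higher in both genotypes. The background was likewise low, with 0.0768% of all genes called higher and 0.024% lower in GR-C3 cells, and 0.0384% higher and 0.0816% lower in WT cells. At an unadjusted p below 0.05, 3 of the 50 genes passed in GR-C3 cells, against 11.8% of all genes, and 12 in WT cells, against 16.7% of all genes. The median change of the set was 0.09 in GR-C3 cells and 0.10 in WT cells, against -0.01 and -0.002 for all genes. In WT cells that median was 0.16 over 11 arrays, 0.18 without WT Dex replicate 1 and -0.28 with normexp, which moved the median of all genes to 0.55. With flagged local backgrounds set to the median of their array, normexp gave 0.12 in WT cells, against 0.08 for all genes. Over 11 arrays, 1 matrix gene was called higher in GR-C3 cells and 8 in WT cells, and none lower. All genes tested then gave 2.09% higher and 1.37% lower in GR-C3 cells, and 5.38% higher and 6.85% lower in WT cells. The 8 genes, 16% of the set, stand against that 5.38%.

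**Figure D3:**
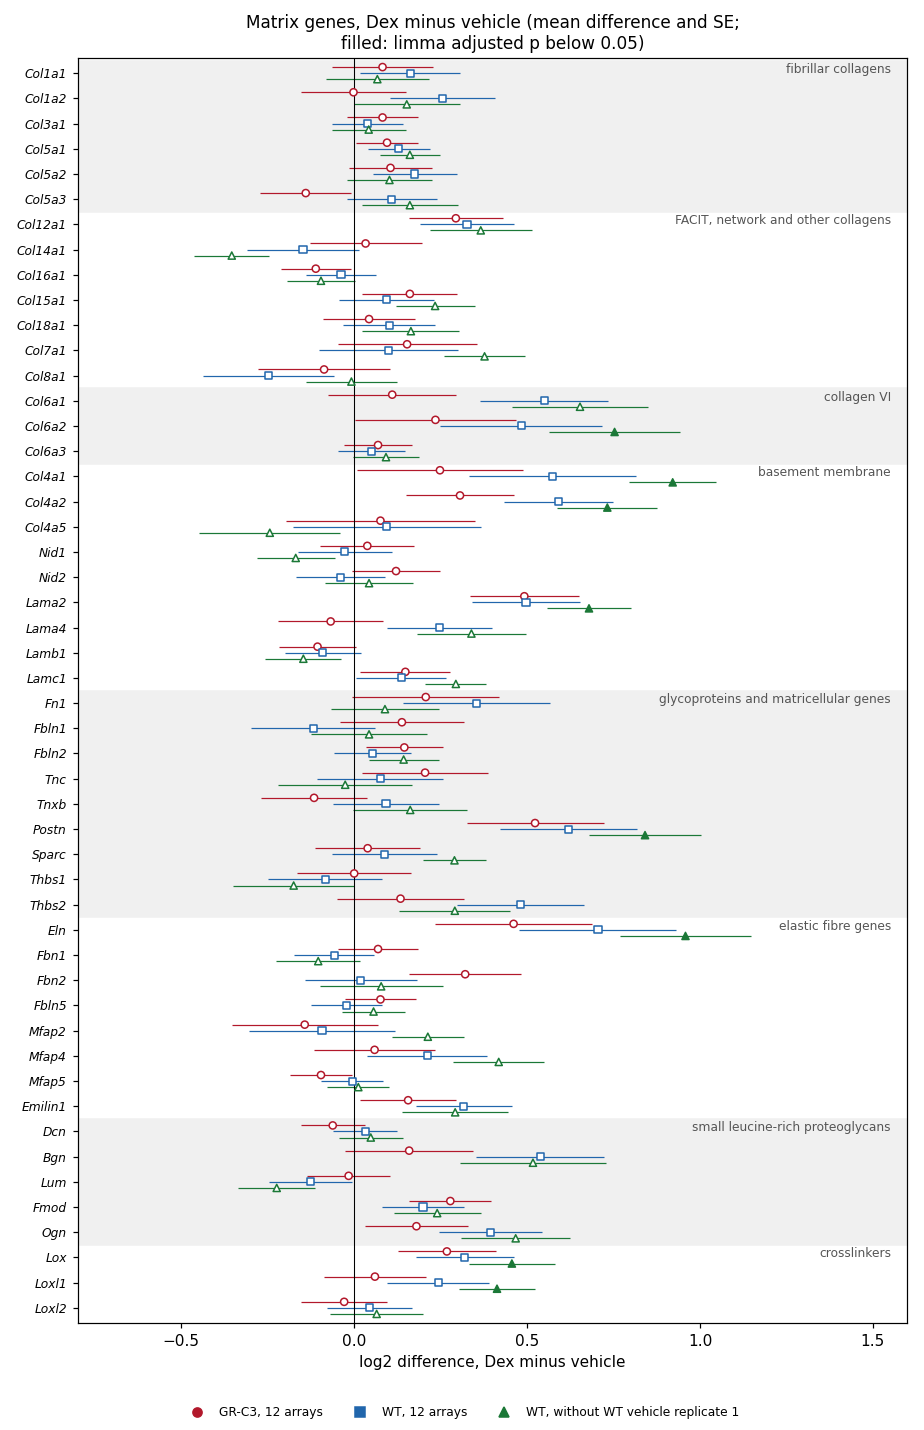
Dex minus vehicle difference of each of the 50 matrix genes on the log2 scale, with its standard error, in GR-C3 cells over 12 arrays (circles), in WT cells over 12 arrays (squares) and in WT cells without WT vehicle replicate 1 (triangles). Filled symbols mark limma adjusted p below 0.05; all 8 filled symbols are triangles, to the right of 0.

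Type IV collagen rose with Dex in WT cells once that array was left out. Col4a1 stood at 4.13, 4.29 and 4.57 in WT Dex cells, against 3.43 and 3.39 in WT vehicle replicates 2 and 3, while replicate 1 was at 4.45, inside the Dex range. The change was 0.92 ± 0.13 over 11 arrays (limma adjusted p 0.00127) and 0.57 ± 0.24 over 12 (adjusted p 0.272). In GR-C3 cells Col4a1 stood at 4.22, 4.38 and 4.33 with Dex, against 4.09, 3.98 and 4.12 with vehicle, without overlap. The change was 0.25 ± 0.24 over 12 arrays (limma adjusted p 0.708), a fit whose spread takes in WT vehicle replicate 1. Over 11 arrays it was not called either, with adjusted p 0.307 in a fit over all probes. Col4a2, its partner chain, stood at 4.20, 4.43 and 4.70 in WT Dex cells, against 4.14, 3.74 and 3.69 in WT vehicle replicates 1 to 3, changed by 0.73 ± 0.15 over 11 arrays (adjusted p 0.00964) and 0.59 ± 0.16 over 12 (adjusted p 0.136). Col4a1 and Col4a2 are transcribed away from each other on chromosome 8. In RefSeq build GRCm38.p6 the window from 250 bases before to 50 after the start of Col4a1 (chr8:11312777-11313076, minus strand) shares 78 bases with that of Col4a2 (chr8:11312555-11312854, plus strand). Second probes, in a fit over all probes, gave 0.73 for Col4a1 and 0.73 for Col4a2 over 11 arrays, and both were called.

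Lama2, the alpha chain of the laminin that surrounds muscle fibres, was the gene called in both genotypes over 11 arrays. It stood at -0.14, -0.06 and -0.002 in GR-C3 Dex cells, against -0.53, -0.66 and -0.48 in GR-C3 vehicle cells, a rise of 0.49 ± 0.11 over 11 arrays (limma adjusted p 0.0384), with adjusted p 0.26 over 12 arrays. With slide as a block, which sets only GR-C3 vehicle replicate 3 against the Dex arrays, the change was 0.42 ± 0.13 (adjusted p 0.223). In WT cells it stood at -0.15, -0.04 and 0.24 with Dex, against -0.12, -0.64 and -0.69 in WT vehicle replicates 1 to 3, a change of 0.68 ± 0.12 over 11 arrays (adjusted p 0.00556) and 0.50 ± 0.16 over 12 (adjusted p 0.182). Its upstream sequence is shown because this is the member with a called Dex change in each genotype. The 250 bases before the annotated start (RefSeq, GRCm38.p6, chr10:27616943-27617192, minus strand) hold 1 copy of the glucocorticoid response element half-site AGAACA, searched on both strands and printed in capitals.
Lama2 upstream: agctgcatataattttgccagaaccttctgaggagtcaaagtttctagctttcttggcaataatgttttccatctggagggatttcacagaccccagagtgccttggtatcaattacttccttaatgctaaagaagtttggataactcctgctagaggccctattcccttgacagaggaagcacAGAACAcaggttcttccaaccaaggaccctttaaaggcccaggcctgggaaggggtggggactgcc
That half-site, AGAACA or TGTTCT, was found in 16.1% of the 32851 upstream windows of the table. It was in 7 of the 32 matrix genes matched there, and in 1 of the 5 matched genes among the 8 that rose with Dex in WT cells over 11 arrays. Such a match is a description of the letters and not evidence of a bound site.

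Elastin and its crosslinkers were among the 8 genes. Eln stood at -0.40, -0.67 and -0.03 in WT Dex cells, against -0.56, -1.47 and -1.18 in WT vehicle replicates 1 to 3, with replicate 1 inside the Dex range. The 8 genes were called over 11 arrays and not over 12, a choice that favours a high replicate 1. The change was 0.96 ± 0.19 over 11 arrays (limma adjusted p 0.0095) and 0.71 ± 0.23 over 12 (adjusted p 0.188). In GR-C3 cells it stood at -0.84, -0.68 and -0.66 with Dex, against -1.20, -1.39 and -0.98 with vehicle (0.46 ± 0.23 over 12 arrays, adjusted p 0.46). Over 11 arrays Eln was not called in GR-C3 cells either, with limma adjusted p 0.211 in a fit over all probes. Lox stood at 5.91, 5.61 and 6.06 in WT Dex cells, against 5.81, 5.40 and 5.40 in WT vehicle replicates 1 to 3, and changed by 0.46 ± 0.13 over 11 arrays (adjusted p 0.0418) and 0.32 ± 0.14 over 12 (adjusted p 0.29). Loxl1 gave 0.41 ± 0.11 over 11 arrays (adjusted p 0.038) and 0.24 ± 0.15 over 12 (adjusted p 0.422). With normexp over 12 arrays the changes in WT cells were -0.28 for Lox and -0.28 for Loxl1, neither called. In GR-C3 cells the changes over 12 arrays were 0.27 ± 0.14 for Lox and 0.06 ± 0.15 for Loxl1, and neither was called over 12 or 11 arrays.

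Postn and Col6a2 complete the set. Postn, a matricellular protein that promotes collagen crosslinking, stood at 6.13, 5.96 and 6.28 in WT Dex cells, against 5.95, 5.07 and 5.50 in WT vehicle replicates 1 to 3. Its change was 0.84 ± 0.16 over 11 arrays (limma adjusted p 0.00859) and 0.62 ± 0.20 over 12 (adjusted p 0.185). Postn stood at 6.23, 6.28 and 6.16 in GR-C3 Dex cells, against 5.71, 5.48 and 5.91 in GR-C3 vehicle cells. That change was 0.52 ± 0.20 over 12 arrays (adjusted p 0.353). Over 11 arrays it was not called either, with adjusted p 0.103 in a fit over all probes. Col6a2 stood at 0.34, 0.50 and 0.98 in WT Dex cells, against 0.67, -0.24 and -0.05 in WT vehicle replicates 1 to 3, with 0.75 ± 0.19 over 11 arrays (adjusted p 0.0304) and 0.48 ± 0.23 over 12 (adjusted p 0.326). Col6a1, the neighbouring chain, had a change of 0.65 ± 0.20 over 11 arrays and was not called (adjusted p 0.0607). The slide block leaves, of this comparison, WT Dex replicate 1 against WT vehicle replicates 2 and 3 on 1 slide, so that the spread of the 1 Dex array has to be borrowed from the rest of the fit. There the changes of the 8 genes ran from 0.23 for Loxl1 to 0.93 for Eln, and Col4a1 was at 0.72 ± 0.14 (adjusted p 0.0325).

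**Figure D4:**
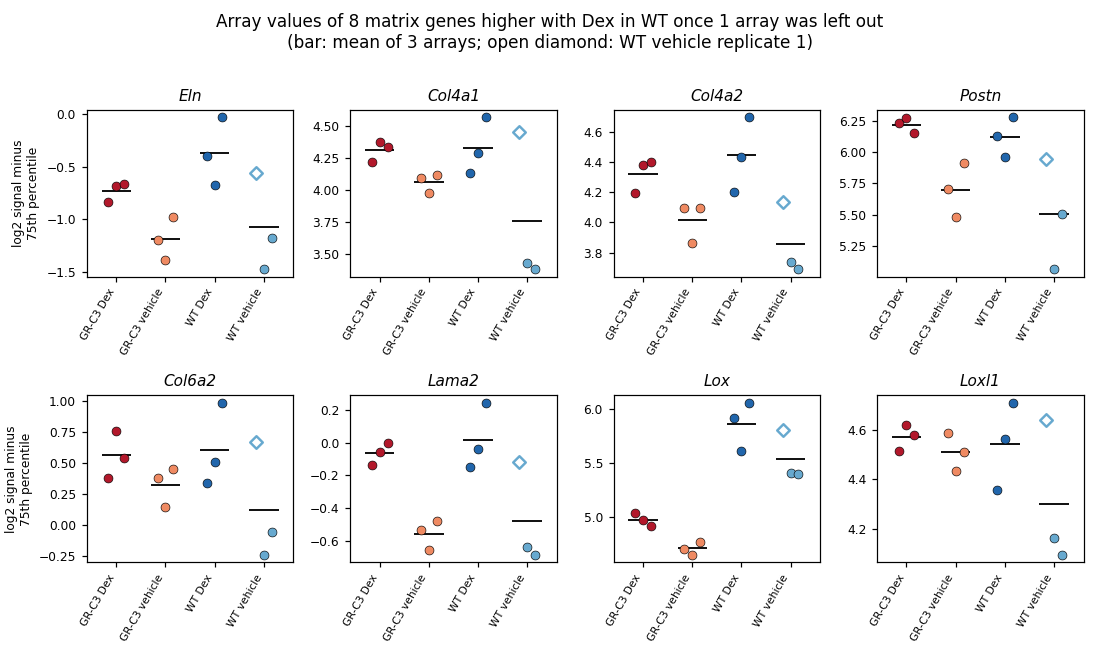
Level of 8 matrix genes on each array (log2 signal minus the array's 75th percentile, 1 panel per gene with its own vertical axis) for GR-C3 Dex, GR-C3 vehicle, WT Dex and WT vehicle cells. Bars are means of 3 arrays; the open diamond, WT vehicle replicate 1, lies above both other WT vehicle arrays in every panel.

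No fibrillar collagen gene was called with Dex. Col1a1 and Col1a2 had changes of 0.08 ± 0.15 and -0.002 ± 0.15 in GR-C3 cells over 12 arrays. In WT cells over 11 arrays they were 0.07 ± 0.15 and 0.15 ± 0.15. Over 12 arrays the 6 genes ran from -0.14 (Col5a3) to 0.105 (Col5a2) in GR-C3 cells and from 0.04 (Col3a1) to 0.255 (Col1a2) in WT cells. Fn1 had a change of 0.21 ± 0.21 in GR-C3 cells over 12 arrays and 0.09 ± 0.16 in WT cells over 11 arrays. For Fbn1 the changes in the same fits were 0.07 ± 0.12 and -0.10 ± 0.12. Of the 29 collagen biosynthesis genes tested, none was called with Dex over 12 arrays, and over 11 arrays Loxl3, a further lysyl oxidase, rose by 1.09 ± 0.099 (limma adjusted p 9.72e-05) and P4ha2, a proline hydroxylase subunit, by 0.44 ± 0.11 (adjusted p 0.0287) in WT cells, with none called in GR-C3 cells. Of the 25 receptor genes, over 11 arrays 3 rose and 1 fell in GR-C3 cells, and 5 rose and 2 fell in WT cells. Of all genes, 2.09% rose and 1.37% fell in GR-C3 cells, and 5.38% rose and 6.85% fell in WT cells. Sdc4, a syndecan of focal adhesions, rose by 1.0 (SE 0.15) in GR-C3 cells (adjusted p 0.00612) and 1.44 ± 0.17 in WT cells (adjusted p 0.000419). Itgb3, the beta chain of a vitronectin receptor, fell in GR-C3 cells (change -0.63 ± 0.10, adjusted p 0.0103) and in WT cells (change -1.17 ± 0.12, adjusted p 0.000153).

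The difference between the Dex changes of the genotypes was tested for each gene as an interaction, the GR-C3 change minus the WT change. None of the 50 matrix genes was called by limma over 12 or over 11 arrays. Of all genes 0% were called higher and 0% lower over 12 arrays, and 0.322% higher and 0.816% lower over 11 arrays. At an unadjusted p below 0.05, 0 of the matrix genes passed over 12 arrays, against 6.15% of all genes, and 4 over 11, against 14.3% of all genes, namely Col4a1 at -0.67 ± 0.17 (adjusted p 0.106), Mfap2 at -0.36 ± 0.14 (adjusted p 0.294), Loxl1 at -0.35 ± 0.15 (adjusted p 0.322) and Col14a1 at 0.39 ± 0.15 (adjusted p 0.268). The Dex changes called in WT cells and not in GR-C3 cells are therefore not shown to differ between the genotypes.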

How the data were processed

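RNA from 12 samples of mouse embryonic fibroblasts, 3 per group, was hybridised to 1-colour (Cy3) Agilent arrays of 45018 spots. The deposited files give, for each spot, an intensity that, per the file headers, Agilent Feature Extraction 9.5.3.1 had background-subtracted and detrended, with no scaling between arrays (the submitters' processing notes give version 9.5). Probe positions are in build mm7, per the file headers. Here control spots and outlier flags were left out, the processed signal was divided by the 75th percentile of its array and put on a log2 scale, and repeat spots were averaged per probe. Those that some group showed well above background on each of its arrays were retained, 30923 of 41174, and a gene took its probe with the highest mean. Groups were compared with limma 3.58.1 (lmFit and eBayes) in R 4.3.3 over all 12 arrays and 20829 genes, with Benjamini-Hochberg adjustment and a threshold of 0.05; the fit was tested on simulated data. Of 89 probes of the matrix genes, 84 were kept. Array values and statistics are given for genes called in a comparison, over 12 or 11 arrays, up to 12 by size of change, and for up to 2 further genes per role with the highest signal. The genes and lists were chosen with earlier results of these data known. Alternatives covered background correction, normalization, dim probes, choice of probe, starting values, samples in the fit, slide, replicate number and leaving out each array. Promoter windows came from RefSeq.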

Additional observations from a re-analysis of the deposited data

How the results depend on the processing

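The 58 gene changes called over 12 or 11 arrays gave 1276 values under 22 other settings, of which 1130 kept their direction and side of the threshold, 107 lost the call and 31 gained it. The remaining 8 changed sign. With normexp background correction these were Col15a1 at -0.69, Col3a1 at 0.06, Fbln5 at 0.08, Sparc at 0.06 and Col16a1 at 0.17 between genotypes under Dex, and Lox and Loxl1 at -0.28 each with Dex in WT cells; without WT vehicle replicate 2, Mfap2 was at -0.04 between genotypes under vehicle. The number of matrix genes called with Dex in WT cells, 0 over 12 arrays, was 1 with slide as a block, where 1 Dex array is left. In 3 settings chosen after seeing the data, all without WT vehicle replicate 1, it was 6 with quantile normalization, 8 with normexp on repaired local backgrounds and 8 with the mean of all probes. All of these were higher, against 1250, 1021 and 1087 of all 20829 genes called higher. In GR-C3 cells the number of matrix genes called with Dex, also 0 over 12 arrays, was 1 with only the groups compared in the fit. It was 1 in each of those 3 settings. Of all genes, 418 were called higher with only the groups compared, and 481, 263 and 448 in those 3 settings. Between genotypes, normexp gave 5 genes under Dex and 5 under vehicle in place of 19 and 19, and moved the median of all genes to -0.40 and 0.29. Calls over all genes fell too, to 275 higher and 180 lower under Dex, in place of 3658 and 2520. Under vehicle they fell to 157 and 220, in place of 3036 and 2123. With flagged local backgrounds set to the median of their array, normexp over 12 arrays gave 18 and 18. Of all genes it called 2449 higher and 2051 lower under Dex, and 2739 and 1655 under vehicle. The median of all genes was then 0.06 and 0.16. In that setting 56 of the 58 gene changes kept their direction and side of the threshold, and 2 lost the call. Slide as a block gave 7 under vehicle, 3 higher and 4 lower, against 753 and 877 of all genes. The cause of these shifts was not tested. Leaving out each array in turn gave 0 to 1 genes with Dex in GR-C3 cells and 0 to 8 with Dex in WT cells. It gave 15 to 25 between genotypes under Dex, 17 to 23 under vehicle and 0 to 0 for the interaction. The upper ends for Dex in both genotypes come from leaving out WT vehicle replicate 1, where 436 of all genes rose in GR-C3 cells and 1121 in WT cells. Between genotypes the same fits called 2249 to 5125 of all genes higher and 1760 to 3358 lower under Dex. Under vehicle they called 1825 to 3370 higher and 1415 to 2322 lower. Of the 19 genes called between genotypes over 12 arrays, 15 under Dex and 16 under vehicle were called whichever array was left out; the exceptions were Fn1, Bgn, Thbs1 and Fbln5 under Dex and Col5a3, Lama4 and Col14a1 under vehicle. Whether the replicate numbers pair the samples was not settled. Correlations of the 18 same-numbered pairs ran from -0.215 to 0.214, with 4 above 0.1, and 6 of 12 arrays correlated best with their own number. With 3 arrays per group this check cannot exclude pairing. With the replicate block, 0 genes were called with Dex in GR-C3 cells, 0 in WT cells, 18 between genotypes under Dex, 19 under vehicle and 0 for the interaction. Of all genes, that fit called 3463 higher and 2415 lower between genotypes under Dex, and 3010 and 2039 under vehicle. Lama4 under Dex lost its call with the mean of all probes (change -0.31, adjusted p 0.0835). All 50 matrix genes were well above background on every array.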
